A study of Drosophila melanogaster with 3 samples.

Results

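Intronic peaks away from promoters are the binding sites of Ets97D-eGFP in *Drosophila melanogaster* embryos whose summit fell inside an intron. A peak belonged to this class when its summit lay more than 500 bp from every transcription start site (TSS) of a protein-coding transcript, inside a protein-coding transcript and in no exon of a protein-coding gene. In the optimal set of the study 840 peaks met these conditions, 15.0% of all (Wilson 95% interval 14.1 to 15.97%), and 4755 peaks did not. Those 4755 were 510 intergenic peaks, 4118 promoter peaks, whose summit was no farther than 500 bp from such a TSS, and 127 exonic peaks. The conditions used positions only, never the signal or the sequence of a peak. Intervals of shares cover counting error over peaks only.

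The study mapped Ets97D binding by chromatin immunoprecipitation and sequencing (ChIP-seq) in 1 group of 3 biological replicates. Each replicate was a collection of whole embryos of both sexes, 0 to 24 h old, from the transgenic strain Delg-GFP, in which GFP is fused to the C terminus of Ets97D, and an antibody against GFP was used. All replicates carry the same fusion, and no untagged or untreated group was analysed here, so the values describe 1 condition in 1 line. Whether untagged Ets97D was also present is not stated in the labels, whose antibody field names Ets97D while their description names the GFP antibody. Whole embryos over this span hold many tissues and stages, and the lists of binding regions allow no check of the tissue by marker genes. The sequencing depth is unknown, because the lists hold a signal per region and no read counts. The labels call the replicates biological and do not describe how the collections were separated.

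Ets97D, also called Delg, belongs to the ETS family of transcription factors, which bind DNA through a conserved domain that reads a GGAA core. Its mammalian relative is the alpha subunit of GABP (NRF-2), known as a regulator of mitochondrial and ribosomal genes. Introns of flies hold many enhancers, stretches of DNA bound by several factors that act on a promoter at a distance, and they also hold internal promoters and non-coding genes.

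The sequences of 12 summit windows show what lies under these peaks. Each runs from 50 bases before to 50 bases after the summit on the plus strand of the dm6 build, read from the RefSeq genome sequence. The first 5 are the strongest intronic peaks, in the introns of ush (chr2L:481030-481130), CG11050 (chr2L:6612666-6612766), crp (chr2L:16269542-16269642), Stt3A (chrX:21053214-21053314) and Lk6 (chr3R:11761007-11761107). The Stt3A summit lay 37 bp from a splice site, so the Stt3A window runs past the end of the intron. The next 4, in CG10019 (chr2L:3748844-3748944), Cow (chr3R:23088410-23088510), Tet (chr3L:2828735-2828835) and Flo2 (chrX:14841990-14842090), are shown because they hold the ETS word of the GABP type. The window in Tudor-SN (chr3L:262887-262987) holds the DNA replication-related element, which is common at promoters. Those in Trl (chr3L:14759479-14759579) and Gug (chr3L:8458281-8458381) are rich in A and T and hold the TATA word. Capitals mark CCGGAAG or its core CCGGAA, the element TATCGATA, the word TATAAA and the word ACAGTG, each on either strand, so that CTTCCGG or TTCCGG and likewise TTTATA are the minus strand forms. ACAGTG was added to the marks after its values had been seen.
ush: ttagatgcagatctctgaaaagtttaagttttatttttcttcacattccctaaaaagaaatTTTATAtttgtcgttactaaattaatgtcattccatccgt
CG11050: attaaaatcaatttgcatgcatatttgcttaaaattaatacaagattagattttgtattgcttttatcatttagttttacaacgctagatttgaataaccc
crp: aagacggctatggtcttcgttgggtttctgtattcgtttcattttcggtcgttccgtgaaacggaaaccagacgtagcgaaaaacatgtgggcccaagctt
Stt3A: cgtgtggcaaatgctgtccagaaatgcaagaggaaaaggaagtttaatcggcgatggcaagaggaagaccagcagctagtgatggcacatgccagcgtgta
Lk6: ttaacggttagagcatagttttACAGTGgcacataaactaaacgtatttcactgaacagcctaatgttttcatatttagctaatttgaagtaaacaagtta
CG10019: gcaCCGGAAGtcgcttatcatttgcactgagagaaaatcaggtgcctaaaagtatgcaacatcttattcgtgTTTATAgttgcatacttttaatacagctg
Cow: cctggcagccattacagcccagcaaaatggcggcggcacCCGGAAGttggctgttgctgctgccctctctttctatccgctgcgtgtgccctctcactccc
Tet: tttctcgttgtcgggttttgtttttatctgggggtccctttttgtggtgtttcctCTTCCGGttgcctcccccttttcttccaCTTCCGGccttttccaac
Flo2: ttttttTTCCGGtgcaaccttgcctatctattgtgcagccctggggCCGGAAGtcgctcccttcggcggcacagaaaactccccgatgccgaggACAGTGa
Tudor-SN: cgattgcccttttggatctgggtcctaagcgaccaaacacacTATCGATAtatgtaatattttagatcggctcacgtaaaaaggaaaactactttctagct
Trl: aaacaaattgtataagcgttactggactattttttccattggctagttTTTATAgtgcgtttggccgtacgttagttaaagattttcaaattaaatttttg
Gug: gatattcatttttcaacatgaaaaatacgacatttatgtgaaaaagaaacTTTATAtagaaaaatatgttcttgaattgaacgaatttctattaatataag

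Intronic peaks had a lower median signal than promoter peaks. The signal is the authors' value per region on a scale that is not stated. Across the 840 intronic peaks it ran from 89.2 to 1384.75, with quartiles of 105.3, 131 and 188. The median was 131 for intronic, 139 for intergenic and 173 for promoter peaks. Of the 100 strongest peaks of the set, 0 were intronic, 16 intergenic, 81 promoter and 3 exonic, and the strongest intronic peak ranked 119. The share of intronic peaks was 6.97% in the quintile of highest signal and 23.2% in that of lowest signal. The authors' −log10 q lay below its maximum in 145 intronic peaks (17.3%) and in 349 promoter peaks (8.47%).

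The replicates were compared through the strongest regions of each, as many as the optimal set has peaks, with each signal divided by the median of those regions. Among the intronic peaks found in a replicate, the median relative signal was 0.893, 0.897 and 0.961 in replicates 1, 2 and 3. For intergenic peaks it was 0.946, 0.963 and 0.976, and for promoter peaks 1.15 in each. Intronic peaks were lower than both other classes in 3 of 3 replicates. The ratio of intronic over intergenic medians was 0.954 ± 0.0275 (SD, n = 3), and that over promoter medians was 0.797 ± 0.0343 (SD, n = 3). An exact two-sided sign-flip permutation test gave p = 0.25 for each (n = 3), the smallest p that 3 replicates allow. Peaks with no strong region in a replicate do not enter its median.

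The share of intronic summits was similar among replicates and below that of weak regions. In the strongest regions it was 15.2%, 13.9% and 16.7% in replicates 1, 2 and 3, a mean of 15.3% ± 1.39 (SD, n = 3). Of an equal number of regions of lowest signal in the pooled list, 2249 (40.2%) were intronic. Intron bases that the rule can reach made up 53.6 Mb, or 39.0% of the 137.5 Mb on the chromosome arms. The optimal set thus had 15.7 intronic peaks per Mb of such intron.

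Of the 840 intronic peaks, 473 (56.3%, Wilson 95% interval 52.9 to 59.6%) were found in all 3 replicates, which means that each replicate had one of its strongest regions with a summit no farther than 150 bp away. The share was 58.8% for intergenic and 74.5% for promoter peaks. A further 244 intronic peaks were found in 2 replicates, 116 in 1 and 7 in none. Support followed the signal in each class. Among intronic peaks it was 100% of 78 in the quintile of highest signal, 97.8% of 137 in the second, 88.9% of 153 in the third, 49.1% of 212 in the fourth and 8.08% of 260 in the last. Intergenic peaks of the same quintiles had 100%, 98.7%, 91.9%, 46.6% and 4.14%. Promoter peaks had 99.3%, 98.8%, 91.0%, 53.3% and 11.5%. At matched signal the intervals of intronic and promoter peaks overlapped in every quintile. The count depends on how a match is made: 36.9% of intronic peaks had all 3 replicates at 50 bp, and 95.5% when the full lists, which include background, were used.

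**Figure D1:**
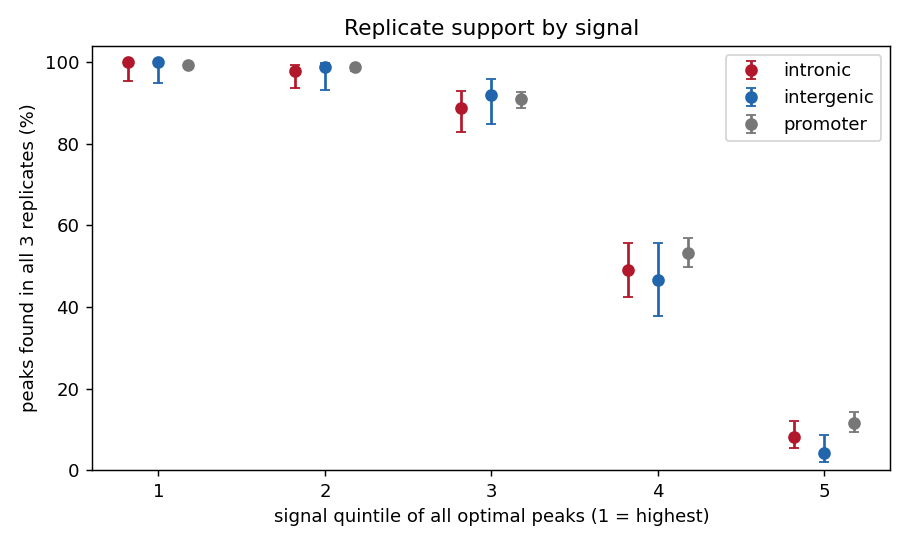
Share of peaks found in all 3 replicates, at a summit distance of up to 150 bp (y axis, %), by quintile of signal over all optimal peaks (x axis, 1 = highest), for intronic, intergenic and promoter peaks; bars are Wilson 95% intervals. Intronic peaks run from 100% of 78 in the first quintile to 8.08% of 260 in the last.

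The strongest intronic peaks were found in every replicate. The highest signal, 1384.75, was at chr2L:480899-481298 in the first intron of ush (FBgn0003963), a zinc finger cofactor of GATA factors. Its relative signal was 8.34, 6.66 and 10.2 in replicates 1, 2 and 3, a mean of 8.40 ± 1.77 (SD, n = 3). Its summit was 1392 bp from the nearest TSS, that of the neighbouring gene cbt, and no promoter peak of ush was in the set. In CG11050 (FBgn0031836) the signal was 1246.4 at chr2L:6612498-6612924, in an intron of 140 bp, with relative signals of 7.66, 5.64 and 8.997. In these 2 genes replicate 2 was the lowest and replicate 3 the highest.

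In crp (FBgn0001994), a basic helix-loop-helix factor related to AP-4, the signal was 1225 at chr2L:16269399-16269807. The relative signals there were 6.78, 7.56 and 7.76, a mean of 7.37 ± 0.522 (SD, n = 3). Stt3A (FBgn0031149), the catalytic subunit of the oligosaccharyltransferase that adds sugars to proteins, had 1092 at chrX:21053014-21053554, 673 bp from its TSS. There the relative signals were 6.41, 6.93 and 7.07. Lk6 (FBgn0017581), a kinase related to the mammalian Mnk kinases of translation factor eIF4E, had 989 at chr3R:11760875-11761226, with 6.18, 4.54 and 7.05. The replicates differed by less at crp and Stt3A than at ush, CG11050 and Lk6.

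The other 15 of the 20 strongest peaks had signals between 499.5 and 837. CG32772 had 837 at chrX:4910186-4910553 with relative signals of 4.85, 4.62 and 5.64 in replicates 1, 2 and 3, and CG9663 had 746 at chr2L:3301998-3302340 with 4.40, 3.79 and 5.36. EcR (FBgn0000546), the ecdysone receptor, had 717 at chr2R:6151082-6151470, in an intron of 56758 bp and 5837 bp from the nearest TSS of EcR, with 4.87, 4.16 and 4.05. These 3 genes had no promoter peak. osa (FBgn0261885), a subunit of the Brahma chromatin remodelling complex, had 619 at chr3R:17704244-17704567, 13940 bp from its TSS, with 3.84, 3.07 and 4.11. CG14322 had 617 at chr3R:17655059-17655383 with 3.88, 3.26 and 3.89, and Tlk, the Tousled-like kinase, had 584 at chrX:3742073-3742388 with 3.38, 2.65 and 4.23. In osa, CG14322 and Tlk, replicate 2 was the lowest of the 3.

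CG5065 had a signal of 555 at chr2R:16609991-16610308, with relative signals of 3.29, 3.54 and 3.20. Adf1, a transcription factor named for the Adh promoter, had 538 at chr2R:6662898-6663240 with 3.66, 2.78 and 3.56. The Asator peak, 537 at chr4:486540-486884 with 2.97, 3.43 and 3.33, was the only intronic peak on chromosome 4. pros, a homeodomain factor of the nervous system, had 535 at chr3R:11338311-11338626 with 3.70, 2.83 and 3.09. Prm encodes paramyosin of the muscle thick filament and had 514 at chr3L:8741238-8741538 with 3.50, 2.51 and 3.22. The peak with a signal of 511 at chr2L:16351090-16351407 lay in an intron of both chif, the fly Dbf4 relative of DNA replication, and Hyls1, with 2.98, 3.27 and 3.39. Snoo, a relative of the Ski and Sno regulators of Smad signalling, had 509 at chr2L:7940693-7941016 with 2.97, 2.64 and 3.75, at 36185 bp from its TSS the farthest of these 20. CG31635 had 506 at chr2L:6647056-6647350 with 2.84, 2.61 and 3.49, and Trl, which encodes the GAGA factor, had 499.5 at chr3L:14759355-14759697 with 3.09, 2.85 and 3.11. Presence in all 3 replicates was a condition for naming these 20, and it passed over no stronger intronic peak. The signal that ranks them comes from the same replicates. Each of the 20 had a relative signal of 2.51 or more in every replicate, and 14 lay in genes that also had a promoter peak. Their summits lay in the first intron of a transcript in 14 cases.

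**Figure D2:**
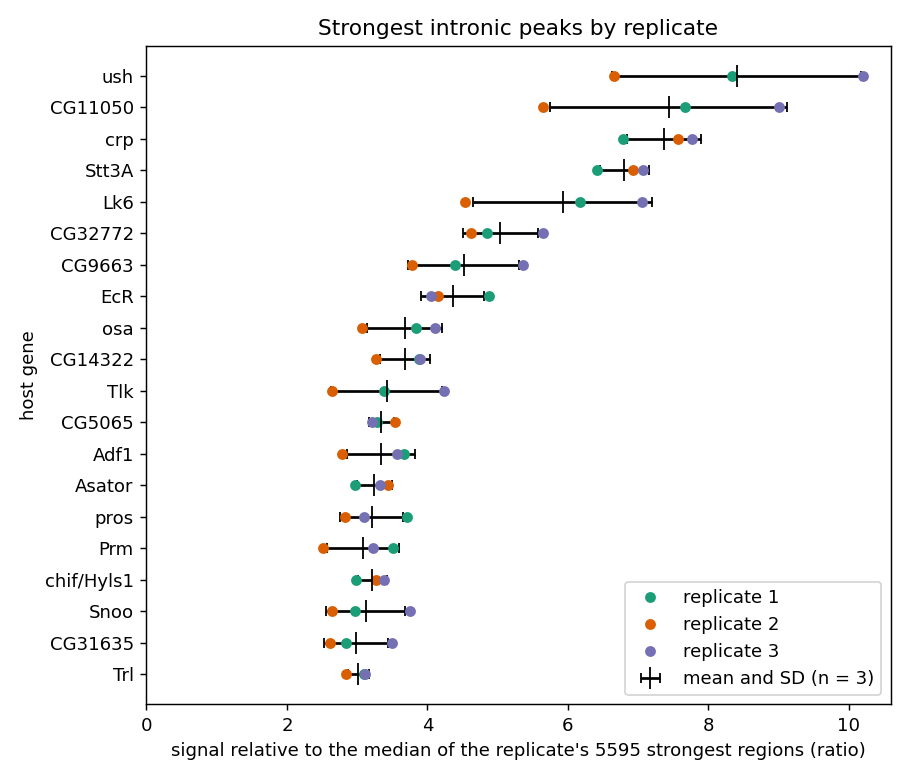
Signal of the 20 strongest intronic peaks found in all replicates, relative to the median of the strongest regions of each replicate (x axis, ratio), by host gene (y axis); points are replicates 1, 2 and 3, and the black marks are the mean and SD (n = 3). The ush peak spans 6.66 to 10.2, and the Trl peak averages 3.02.

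Intronic peaks thinned out with distance from start sites. The distance of the summit to the nearest protein-coding TSS had a median of 2380.5 bp and ran from 504 to 44547 bp, and 460 peaks (54.8%) lay over 2000 bp away. Up to 1000 bp there were 193 peaks, or 48.5 per Mb of intron at that distance. There were 187 (29.3 per Mb) above 1000 and up to 2000 bp, 225 (18.6 per Mb) above that and up to 5000 bp and 134 (12.4 per Mb) above that and up to 10000 bp. Beyond 10000 bp there were 4.96 per Mb, which held 12.02% of the intronic peaks. The median signal was between 133 and 134 in the first 3 of these ranges, 126 in the fourth and 122 in the last. The share with all 3 replicates was 57.5% in the nearest range and 45.5% in the farthest.

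**Figure D3:**
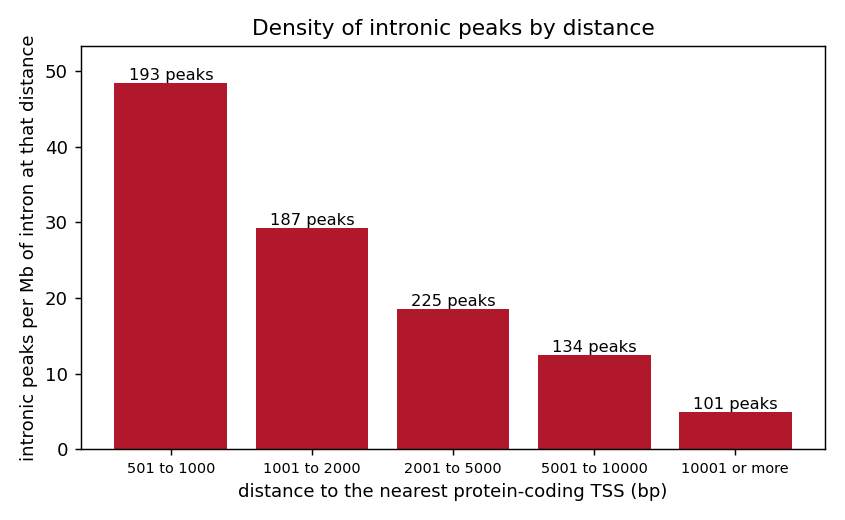
Intronic peaks per Mb of intron that the rule can reach (y axis) by distance of the summit from the nearest protein-coding TSS in bp (x axis); numbers of peaks stand above the bars. The density is 48.5 per Mb up to 1000 bp and 4.96 per Mb beyond 10000 bp.

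First introns held many of these peaks. In 577 cases (68.7%) the summit lay in the first intron of at least 1 transcript, against 42.5% of the intron bases that the rule can reach, and in 368 cases (43.8%) it lay in the first intron of every transcript with an intron there. The nearest TSS belonged to the host gene in 687 cases (81.8%). The smallest intron around a summit had a median length of 8986.5 bp, and the median over all annotated introns was 102 bp. The first median counts summits and the second counts introns. Long introns hold most bases in reach of the rule and short ones few or none, so these 2 medians are not a comparison. Summits lay a median of 1482.5 bp from a splice site, and 1 lay in an annotated transposable element. The regions had a median width of 450 bp, and no summit lay within 150 bp of another intronic summit. The X chromosome held 196 peaks (23.3%) and 18.1% of the intron bases in reach, or 20.2 per Mb. The arms 2L, 2R, 3L and 3R had between 13.8 and 18.0 per Mb, and chromosome 4 had 1.76 per Mb. The first-intron, distance and chromosome shares are descriptions with no test.

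Just inside the 500 bp limit were peaks in tay at 504 bp with a signal of 94.5, in lola at 509 bp with 97.2 and in CG3638 at 509 bp with 96.4. Just outside it, within introns, were peaks in Nost at 498 bp with 94.8, in PNUTS at 495 bp with 101.02 and in CG15531 at 494 bp with 96.3. With a limit of 2000 bp in place of 500 bp, 460 peaks were intronic.

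The 840 peaks lay in introns of 603 protein-coding genes, 6.52% of the 9242 genes with intron in reach of the rule. A single peak was found in 432 genes, 2 peaks in 106 and 3 or more in 65, and 33 peaks lay in 2 genes and 2 in 3 or more. The share of genes with a peak was higher the more intron lay in reach: it was 0.525% of 5710 genes up to 1 kb, 7.69% of 1678 up to 5 kb, 18.4% of 1139 up to 20 kb and 32.7% of 715 above that. Of the 603 host genes, 361 (59.9%) also had a promoter peak, against 3919 (42.4%) of all 9242. By peaks, 535 (63.7%) lay in such genes, which held 33.4% of the intron bases in reach. The median signal was 132 in hosts with a promoter peak and 129.9 in hosts without.

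Raf, the kinase of the Ras and MAP kinase pathway, held 7 intronic peaks with signals of 458, 209, 191, 145, 143, 134 and 121, and 5 of them were found in all 3 replicates. CG1677 also held 7, with signals of 100.9 to 209, of which 6 were found in all replicates. There were 6 each in crp (116 to 1225), in Hr4, an orphan nuclear receptor of the ecdysone response (111 to 326), and in CHES-1-like, a forkhead factor (109.8 to 269). In each of these 3 genes 5 of the 6 peaks were found in all replicates. Also with 6 peaks, but with a lower highest signal, were kirre (91.8 to 266) and Eip75B, an ecdysone-induced nuclear receptor (89.2 to 169), where 4 of 6 were found in all replicates. Raf, CG1677, Hr4, CHES-1-like and kirre are on the X chromosome. Per Mb of their own intron in reach the densities were 193 for Raf, 77.1 for CG1677, 303 for crp, 116 for Hr4, 371 for CHES-1-like, 63.7 for Eip75B and 17.95 for kirre, set against 15.7 over all genes. These genes were named for their number of peaks, so a density above that value is partly built in by the choice.

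Before any account of intron size, shares of genes with an intronic peak were highest in the lists of hormone response and ETS genes, which share Eip74EF. Of 23 ecdysone response and nuclear receptor genes with intron in reach, 10 did: E23, EcR, Eip63E, Eip74EF, Eip75B, Hr3, Hr4, br, ftz-f1 and tai. Their 26 peaks amounted to 34.0 per Mb, and Hr4 followed EcR with signals of 326 and 271. Many of these genes are long, and among those with over 20 kb of intron in reach 9 of 13 had a peak, against 234 of 715 of all genes of that size. Of the ETS family itself, the relatives of Ets97D, 4 of 8 genes did. They were pnt, an activator downstream of MAP kinase (signals of 299 and 197), aop, a repressor of the same targets (205), Eip74EF and Ets65A. By intron in reach it was 3 of 3 ETS genes over 20 kb, 1 of 2 from 5 to 20 kb and 0 of 3 below. Of 42 genes of growth factor and developmental signalling 14 held a peak, with 39.9 per Mb. Among them were aos, a secreted inhibitor of the EGF receptor (301), Mad, a Smad of Dpp signalling (297), and InR, the insulin receptor (279.9). In this signalling list it was 10 of 13 genes over 20 kb, 3 of 12 from 5 to 20 kb and 1 of 17 below.

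Of 45 BTB and chromatin regulator genes 17 held a peak, with 37.8 per Mb, led by osa (619), Trl (499.5) and psq, a BTB factor (372). In this list 2 of 16 genes with up to 5 kb of intron in reach had a peak, against 159 of 7388 of all genes of that size. From 5 to 20 kb it was 10 of 18, against 210 of 1139, and over 20 kb it was 5 of 11, against 234 of 715. RNA-binding and splicing regulators had 13 of 34 with 12.7 per Mb, among them mub (317), mbl, the fly muscleblind (283), and ps (189). Of these regulators, 8 of 14 over 20 kb had a peak, 1 of 3 from 5 to 20 kb and 4 of 17 below. Insulator and promoter element proteins had 4 of 16, with 7 peaks on 0.0276 Mb (253 per Mb). They were Trl, JIL-1, a kinase of histone H3 (346, 211 and 185), fs(1)h and mod(mdg4), and 3 of these 4 were also in the chromatin list. By size it was 3 of 3 insulator list genes from 5 to 20 kb and 1 of 13 below.

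Per Mb of intron, the neural lists held fewer peaks than all genes, while among genes with over 20 kb in reach their shares were near that of all genes. In that size class 10 of 33 axon guidance genes and 6 of 21 ion channel genes had a peak, beside the 234 of 715 of all genes. Axon guidance and synaptic adhesion genes had 10 of 44 with 8.77 per Mb, below the 15.7 of all genes, led by kirre, an immunoglobulin adhesion protein of myoblast fusion (266 and 187), and Sema1a, a semaphorin (213). Ion channel and neurotransmission genes had 10 of 44 with 7.80 per Mb, led by the potassium channels KCNQ (263) and Sh (177) and the acetylcholine receptor subunit nAChRalpha6 (172). Muscle genes had 6 of 37 with 12.7 per Mb, led by Prm (514), mbl (283) and Mef2 (169), a master regulator of muscle. By size it was 4 of 9 muscle genes over 20 kb, 1 of 10 from 5 to 20 kb and 1 of 18 below. Segmentation and Hox factors had 4 of 29, Abd-B, Antp, hth and pb, with 14.5 per Mb, and their strongest peak was in Abd-B (144). All 4 were among the 9 factors of this list with over 20 kb in reach. Metabolic enzymes had 4 of 42, with 5 peaks on 0.0604 Mb (82.7 per Mb): bmm, a triglyceride lipase (244), Lsd-2, a lipid droplet protein (213), whd, a carnitine palmitoyltransferase (125), and sesB, the ADP/ATP carrier. Up to 5 kb it was 3 of 39 metabolic genes, against 159 of 7388 of all genes of that size. From 5 to 20 kb it was 1 of 3. Of 32 cytosolic ribosomal protein genes with any intron in reach, 0.0155 Mb in all, 0 held a peak. No list was tested, and each count is set against 603 of 9242 genes (6.52%), most of which have little intron in reach.

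The ETS word was rare in intronic peaks, as it was in promoter peaks. CCGGAAG, the GABP type word, lay within 50 bp of the summit of 12 intronic peaks (1.43%, Wilson 95% interval 0.819 to 2.48%) and in 2 flank windows centred 500 bp upstream, towards lower coordinates (0.238%). The two-sided exact McNemar test gave p = 0.0129 and an adjusted p of 0.149 over the panel of 23 words, with peaks as units. Over the replicates' own intronic regions the share was 1.24% ± 0.172 at summits and 0.196% ± 0.135 in flanks (SD, n = 3). It passed the test in 3 of 10 alternatives, with adjusted p from 0.0225 to 0.468 over them (exact McNemar test): a window of 25 bp, without replicate 1 and without replicate 2. The core CCGGAA, which the longer word contains, was in 34 summit windows (4.05%) and 19 flanks (2.26%; exact McNemar adjusted p = 0.281), and AGGAAG was in 31 and 32. CCGGAAG was in 1.43% of intronic and 0.801% of promoter peaks, and CCGGAA in 4.05% and 3.62%. Neither of these differences passed the test (Fisher's exact test, adjusted p = 0.223 and 0.601).

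The 12 peaks with CCGGAAG had signals from 94.6 to 310.5, with a median of 163, against 131 in the others. They lay in CG10019 (310.5), CG13229 (279), Cow (189.8), a carrier of the Wingless ligand, Sh (177), Tet (174), nAChRalpha6 (172), Flo2 (155), a flotillin, RYa-R (125), CG44422 (120.0 and 114), CG13204 (111) and CG15803 (94.6). The word lay within 25 bp of the summit in 10 of them, as in the windows of Cow, Tet and Flo2 printed above, and Tet held 2 copies. All 3 replicates held 8 of the 12 (66.7%), against 56.2% of the peaks without it. None of the 5 strongest windows printed above held CCGGAA, and among the 20 strongest peaks it was in those of CG14322, CG5065 and pros. The shorter ETS core AGGAAG, which is not marked by capitals, was in those of Stt3A and Snoo.

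A single word of the panel was more frequent at intronic summits than in the flank, which is 4.35% of 23 words. TATAAA, the TATA word, was in 164 summit windows (19.5%, Wilson 95% interval 17.0 to 22.3%) and 100 flanks (11.9%; exact McNemar adjusted p = 0.000619). Over the replicates' own regions it was 18.0% ± 1.20 at summits and 11.7% ± 0.149 in flanks (SD, n = 3). Over 10 alternatives the adjusted p ran from 1.93e-05 to 0.558 (exact McNemar test). The call was lost with the 50% of peaks of highest signal (18.7% at summits, exact McNemar adjusted p = 0.558), with a TSS limit of 2000 bp (0.147) and without replicate 3 (0.0657). Peaks with TATAAA had a median signal of 131, as had those without it. The remaining 22 words, among them words of Zelda, AP-1, GATA, Grainyhead, Su(H), Runx, Mef2 and nuclear receptors, did not pass the test in the main setting. The nuclear receptor word TGACCT passed in 1 of 10 alternatives (exact McNemar adjusted p = 0.0191).

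More words of the panel differed between intronic and promoter peaks than between intronic and intergenic peaks. Against promoter peaks, 8 of 23 words (34.8%) differed by the two-sided Fisher's exact test with Benjamini-Hochberg adjustment, peaks as units. The element TATCGATA, which the factor DREF binds, was in 0.714% of intronic and 9.91% of promoter peaks (Fisher's exact test, adjusted p = 1.68e-25). CGATA, the core bound by BEAF-32 and part of TATCGATA, was in 12.3% and 37.7% (4.93e-51), and GGTCACAC, the core promoter element Motif 1, in 0.119% and 7.72% (1.98e-24). Over the replicates' own regions TATCGATA was in 0.442% ± 0.216 of intronic and 9.36% ± 0.218 of promoter regions (SD, n = 3). These 3 calls held in all 9 alternatives run. The 6 intronic peaks with TATCGATA had signals of 91.8 to 131.6, below or near the median, in nrm, nAChRalpha4, Tudor-SN, Mapmodulin, Imp and kirre, and 2 of them were found in all 3 replicates. CAGCTG was lower as well, 3.45% against 9.08% (adjusted p = 2.33e-08 by Fisher's exact test).

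Higher in intronic than promoter peaks were TATAAA (19.5% against 12.9%, adjusted p = 6.88e-06 by Fisher's exact test), CATATG (5.0% against 2.67%, 0.00287), TGATAAG of GATA factors (3.10% against 1.29%, 0.00161) and TAATTA of homeodomain factors (7.86% against 5.59%, 0.0380). With the 50% of peaks of highest signal, these 4 words and CAGCTG lost their calls (adjusted p from 0.0662 to 0.503, Fisher's exact test). In that smaller set 3 of 23 words were called, and 9 had an unadjusted p under 0.05 by the same test. Of the 26 intronic peaks with TGATAAG, 14 were in the quintile of lowest signal. The word was in 5.38% of the intronic peaks there and in 0.730% to 2.61% of those in the other quintiles. Over the 9 alternatives the adjusted p of TGATAAG ran from 0.00139 to 0.503, and 3 of them kept the call. For TAATTA it ran from 0.0435 to 0.901 with 1 kept, and the direction turned in windows of 100 bp. CATATG kept its call in 6 of 9 (2.15e-05 to 0.373) and lost it without replicate 1 (0.0531), and TATAAA (1.51e-05 to 0.0699) and CAGCTG (1.85e-11 to 0.141) in 8 of 9.

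Against intergenic peaks, 2 of 23 words (8.7%) differed, both lower in introns. The ETS core CCGGAA was in 4.05% of intronic and 8.24% of intergenic peaks (Fisher's exact test, adjusted p = 0.0172), and over the replicates' own regions in 3.76% ± 0.344 and 8.14% ± 0.765 (SD, n = 3). GGTGGCGC, the core of the site of the insulator protein CTCF, was in 0.952% and 5.49% (adjusted p = 3.52e-05 by Fisher's exact test), and over the replicates in 1.02% ± 0.0470 and 4.03% ± 0.325 (SD, n = 3). Over 9 alternatives the adjusted p ran from 0.00654 to 1 for CCGGAA and from 3.29e-05 to 0.0972 for GGTGGCGC (Fisher's exact test). CCGGAA lost its call at a TSS limit of 2000 bp and in windows of 25 bp. GGTGGCGC lost it in windows of 25 bp (0.0972) and with peaks of all 3 replicates only (0.0958). A TSS limit of 1000 bp is not among these 9. There 1 panel word was called, so at least 1 of these 2 words lost its call. In the quintile of highest signal CCGGAA was in 6 of 78 intronic peaks (7.69%) and 17 of 71 intergenic peaks (23.9%). In the next quintiles, from higher to lower signal, the shares were 4.38%, 3.92%, 3.30% and 3.46% of intronic peaks and 8.86%, 5.05%, 6.03% and 4.14% of intergenic peaks. The gap was widest in the quintile of highest signal, and the quintiles were not tested. The 8 intronic peaks with GGTGGCGC lay in SNF4Agamma, nrv2, Eip74EF, Abd-B, CG43693, Egfr, Ets65A and CG31087, had signals of 113 to 185, and were found in all 3 replicates in 7 cases. CCGGAAG, at 1.43% and 2.94%, did not pass (Fisher's exact test, adjusted p = 0.235).

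**Figure D4:**
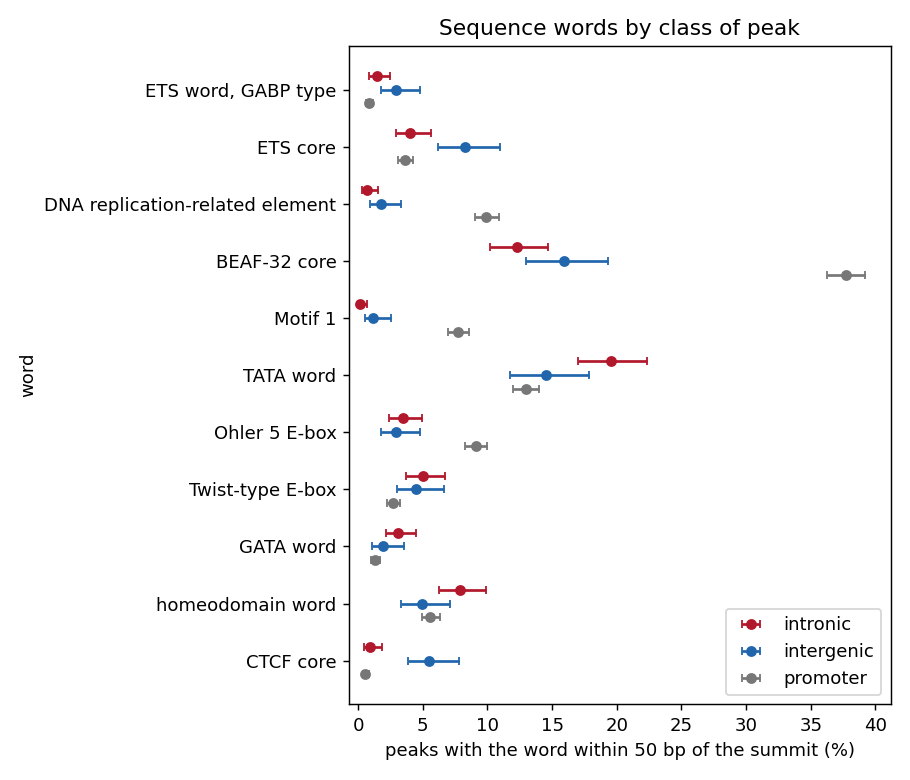
Share of peaks with a word within 50 bp of the summit (x axis, %) for words that differed in any test and the GABP type ETS word (y axis), in intronic, intergenic and promoter peaks; bars are Wilson 95% intervals. The BEAF-32 core is in 12.3% of intronic and 37.7% of promoter peaks, and the TATA word in 19.5% and 12.9%.

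A scan of all words of 6 bases (a word and its reverse complement count as 1) gave 54 words (2.6%) more frequent at intronic summits than upstream and 43 (2.07%) less frequent, by the exact McNemar test with adjustment over all words. Of the 54, 40 had at least 5 A or T bases, while 228 of all words scanned are of that kind. Of the 43, 35 had at most 2, as have 720 of all words scanned. The word of lowest p was TATTAA among the higher, in 134 summit windows (15.95%) and 67 flanks (7.98%; exact McNemar adjusted p = 0.000540). Among the lower it was GGGGGA, in 11 (1.31%) and 50 (5.95%; exact McNemar adjusted p = 0.000316). The others of lowest p among the higher words were, with their numbers of summit windows and of flanks, ATATTA (139 and 73), AAATAT (236 and 150), ATTTTA (200 and 125), TTAAAA (203 and 132), TATAAA (164 and 100), ATTTAA (184 and 118), AAATAA (239 and 168), AATATA (155 and 94) and TTCAAA (138 and 81). Among the lower ones they were CCCCCA (9 and 42), GGAGGA (10 and 41), ACGGAC (5 and 25), ATGGGG (12 and 42), GGAAAA (86 and 141), CGACGA (7 and 31), CCCTCC (11 and 37), GGCCAA (29 and 65) and TCGCCA (25 and 57). The number of calls was 8 higher and 2 lower with the 473 peaks of all 3 replicates, 12 and 2 in windows of 25 bp, and between 8 and 16 higher and 6 and 9 lower without 1 replicate. In windows of 100 bp it was 95 higher and 82 lower. Of the 8 higher words left with all 3 replicates, 7 were among the 54. Against the downstream flank 40 words were higher, of which 23 were among the 54, and 29 were lower, of which 14 were among the 43, so over 50% of the words called depend on the side of the flank.

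Of the 54 words, 8 had at most 3 A or T bases, a grouping made after the values were seen. ACAGTG was in 72 intronic summit windows (8.57%), 33 upstream flanks (3.93%) and 43 downstream flanks (5.12%). In promoter peaks it was in 9.11% of summit windows, 4.49% of upstream flanks and 4.13% of downstream flanks. In intergenic peaks it was in 6.27%, 5.88% and 2.75%. The share in intronic summits lay between 7.30% and 9.23% in all 5 quintiles of signal. The Lk6 and Flo2 windows above hold it. The remaining words of this kind, several of which overlap one another, were, with their numbers of summit windows, upstream flanks and downstream flanks, CACTAC (28, 6 and 15), ACTGTG (53, 22 and 43), ACTGCG (44, 17 and 27), CTGTGC (56, 26 and 48), CAGTGC (69, 38 and 37), AAGCCT (29, 9 and 21) and GCACTA (43, 19 and 16). In 6 of these 8 words, ACAGTG among them, the downstream flanks of intronic peaks held more windows with the word than the upstream flanks. At intronic and intergenic summits the shares were 3.33% and 3.14% for CACTAC, 6.31% and 6.67% for ACTGTG, and 5.24% and 3.53% for ACTGCG. They were 6.67% and 7.06% for CTGTGC, and 8.21% and 10.8% for CAGTGC. For AAGCCT they were 3.45% and 3.53%, and for GCACTA 5.12% and 5.88%.

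Base composition at the summit also differed from that of the flank. The GC content within 25 bp of the summit averaged 36.2% in intronic peaks and 41.5% in the window 500 bp upstream, and it was lower at the summit in 517 of 840 peaks (61.5%). Promoter peaks had 40.9% at the summit and 46.1% upstream, and intergenic peaks 40.4% in both. Over the replicates' own regions, summit minus flank was -4.56 ± 0.471 percentage points in intronic, -0.225 ± 0.238 in intergenic and -4.73 ± 0.796 in promoter regions (SD, n = 3). The difference was more negative in intronic than in intergenic regions in 3 of 3 replicates, by a mean of -4.33 ± 0.695 points (intronic minus intergenic), with an exact sign-flip permutation p = 0.25 (n = 3), the smallest possible. In 106 intronic peaks (12.6%) the upstream window was centred in an exon, and in the other 734 the difference was -4.44 points. The part of this composition in the counts of TATAAA and of the 6-base words was not tested.

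The dip in intronic peaks was narrow and centred on the summit. Mean GC content was 42.8% at 200 bp upstream, 36.2% at the summit and 42.9% at 200 bp downstream, and 40.9% at 100 bp on either side. Promoter peaks had their lowest values at 100 bp on either side, 36.2% upstream and 37.0% downstream, with 40.9% at the summit itself. Intergenic peaks had 40.4% at the summit, 39.1% at 50 bp upstream and 38.4% at 50 bp downstream. The dip in intronic peaks was present in every quintile of signal, with summit minus flank between -7.80 and -4.18 points. In intergenic peaks that difference changed sign between quintiles. From the highest to the lowest signal it was 3.62, 4.10, -2.89, 0.558 and -2.37 points. Among the windows printed above, GC content over the whole window was lowest in Gug (20.8%), CG11050 (23.8%) and ush (26.7%) and highest in Cow (62.4%) and in Flo2 (57.4%).

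**Figure D5:**
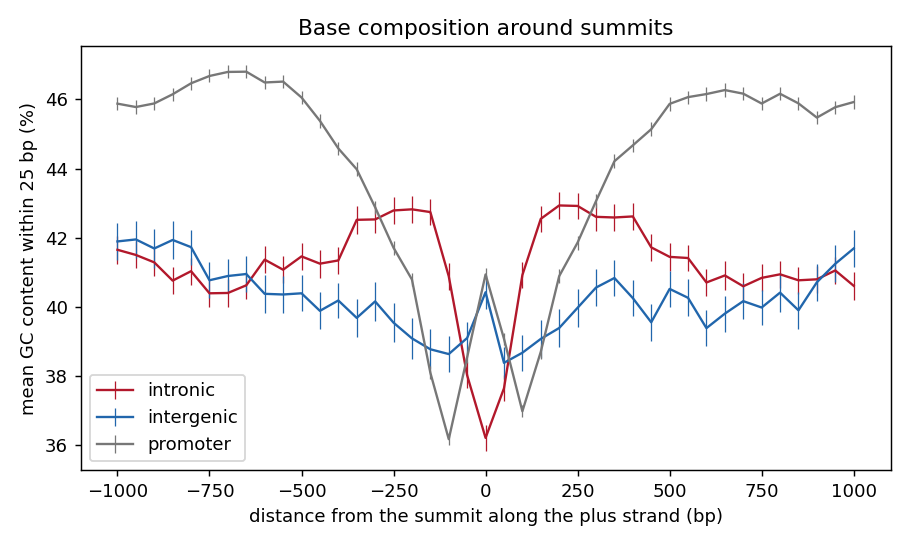
Mean GC content within 25 bp (y axis, %; the axis does not start at 0) by distance from the summit along the plus strand in bp (x axis), for 840 intronic, 510 intergenic and 4118 promoter peaks; bars are standard errors over peaks. Intronic peaks have their minimum of 36.2% at the summit, and promoter peaks have minima at 100 bp on either side.

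Few intronic peaks lay at start sites of non-coding genes. A TSS of an annotated non-coding gene was within 500 bp of 28 intronic summits (3.33%, Wilson 95% interval 2.32 to 4.78%) and of 61 intergenic summits (11.96%, 9.43 to 15.1%). Of the 28, 25 had the TSS of a gene of the type ncRNA. Within 150 bp the counts were 9 intronic and 25 intergenic summits.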

How the data were processed

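A list of regions for each of 3 replicates, a pooled list and the optimal set were used, all on dm6 and in narrowPeak form. They derive, per the file headers in the text beside each sample, from alignments of ChIP and control, with an irreproducible discovery rate (IDR) threshold for the optimal set. The signal and the −log10 q value per region are the authors' deposited values. Aligner, caller and thresholds were not given in the sources used here, and the dm3 lists were not used.

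Summits were classified with the Ensembl annotation and RefSeq sequence of Release 6. Peaks were matched to the strongest regions of a replicate, as many as the optimal set has, at up to 150 bp. Both strands were searched for words up to 50 bp from the summit. Shares have Wilson 95% intervals, adjusted p-values are Benjamini-Hochberg, and tests over peaks treat peaks as units. Gene lists held 489 names, of which 483 matched. The result of 1 list is not reported here. Leaving out a replicate meant keeping peaks found in both others. Alternatives also changed the TSS limit, window, flank, match distance and set of peaks. Named peaks were the 20 strongest found in all replicates, the 3 strongest per gene list, the 5 genes with most peaks (ties by highest signal), the 3 nearest to each side of the limit and, of the scan, 10 words per direction. Members, lists and words were chosen with earlier results of these data known, and GC content and the shares of ACAGTG were added after the word results were seen. Scripts were tested on simulated data. The tools were SciPy 1.17.1 with NumPy 2.4.6 on Python 3.11.15, with tables in pandas 2.3.3 and plots in matplotlib 3.10.9.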

Additional observations from a re-analysis of the deposited data

How the results depend on the processing

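Of 75 alternatives to the main counts and values, 36 left them within their limits and 39 moved them. Some alternatives changed how many peaks enter, and others the window, the flank, the match distance or the replicate lists. The 840 intronic peaks became 460 with a TSS limit of 2000 bp, 294 among the 50% of peaks of highest signal, 473 with all 3 replicates only and 522 to 591 without 1 replicate. Host genes, 603, became 319, 264 and 397 under the first 3 of these. The ratio of intronic over intergenic signal, 0.954, was 0.908 to 0.948 without 1 replicate, the lowest without replicate 3, and the ratio over promoter signal, 0.797, was 0.759 with full replicate lists. Support by all 3 replicates, 56.3%, was 36.9% at 50 bp and 95.5% with full lists. Panel words called against the flank, 1, were 2 in windows of 25 bp and against the downstream flank, 0 to 2 without 1 replicate, and 0 with the 50% of highest signal or a limit of 2000 bp. By the exact McNemar test, 2 words passed an unadjusted p under 0.05 with the 50% of highest signal, 5 at 2000 bp and 3 without replicate 3. Scan words more frequent at summits, 54, were 12 and 95 in windows of 25 and 100 bp, 8 with all 3 replicates only and 8 to 16 without 1 replicate. Less frequent ones, 43, were 2, 82, 2 and 6 to 9. Against the downstream flank they were 40 and 29, of which 23 and 14 were also called against the upstream flank. Words that differed from intergenic peaks, 2, were 0 in windows of 25 bp (2 at an unadjusted p under 0.05, Fisher's exact test). They were 3 in windows of 100 bp and 1 with all 3 replicates only or at a TSS limit of 1000 or 2000 bp. Those that differed from promoter peaks, 8, were 3 with the 50% of highest signal, 5 at 2000 bp and 5 to 7 without 1 replicate. At an unadjusted p under 0.05 they were 9, 7 and 6 to 7 (Fisher's exact test). Non-coding start sites, 28, were 9 within 150 bp and 51 within 1000 bp. The difference of TAATTA between intronic and promoter peaks turned to -0.377 points in windows of 100 bp. The cause of a changed call was not tested. Depth per sample is unknown, so the counting error of a signal cannot be given.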
